A study of Rattus norvegicus with 90 samples.

Results

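Maternal liver at gestation day (GD) 18 was compared between Sprague-Dawley dams given 3 mg/kg/d of Nafion byproduct 2 (NBP2), a sulfonic acid with a polyfluorinated ether chain, and control dams given 0 mg/kg/d. The libraries were chosen by their labels: 4 dams at 3 mg/kg/d (2078 and 2079 in study block 140, 2123 and 2124 in study block 143) and 6 controls (2069, 2070 and 2071 in block 140, 2114, 2115 and 2116 in block 143), 10 of the 90 libraries of the series. All were time-mated Crl:CD(SD) females dosed by mouth from GD14 to GD18, with liver taken a few hours after the final dose, and each library is 1 dam. The other maternal GD18 libraries, 4 per dose at 0.1, 0.3, 1, 10 and 30 mg/kg/d, shared the fit, and 3 dams at 3 mg/kg/d and 3 controls of a later age are set beside the results. The question was which transcripts of the maternal liver differ at an intermediate dose of the series.

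Hepatocytes sense foreign and fatty compounds through nuclear receptors. CAR and PXR bind, as heterodimers with RXR, to response elements near genes of cytochrome P450s of the CYP2B and CYP3A families, conjugating enzymes and transporters, and in rat liver Cyp2b1, Cyp2b2 and Cyp3a23/3a1 are the usual read-outs of CAR and PXR activators. PPAR-alpha senses fatty acids and raises genes of peroxisomal and mitochondrial fatty acid oxidation, such as Ehhadh, Acot1 and Cyp4a1, and many perfluorinated acids activate it in rodents.

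Transcripts were counted by TempO-Seq, in which paired detector probes are ligated side by side on a transcript and the product is sequenced, so that a gene is represented by its probe site alone. The 10 libraries held 3667351 to 6658331 counts, so that 1 count was worth 0.15 to 0.273 CPM, the library's counts scaled to an equal total, in which every level below is given. Hepatocyte markers were present, with all 13 in the file counted and a sum of 41570 to 49940 CPM at 3 mg/kg/d and 38710 to 52530 CPM in controls. Libraries of block 140 stood apart. Olfactory, vomeronasal, taste and trace amine receptor genes, 1270 in the file, summed to 2926 and 688 CPM in treated dams 2078 and 2079, against 3306, 4460 and 3498 CPM in controls 2069, 2070 and 2071. In block 143 the sums were 30.7 and 24.7 CPM in treated dams 2123 and 2124, against 26.2, 53.1 and 62.6 CPM in controls 2114, 2115 and 2116. Treated libraries were lower on average, by a log2 difference of -1.04 in all, -1.39 within block 140 and -0.69 within block 143 (two-sided exact permutation test within blocks, p = 0.05, 100 arrangements, smallest possible p 0.01).

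**Figure D1:**
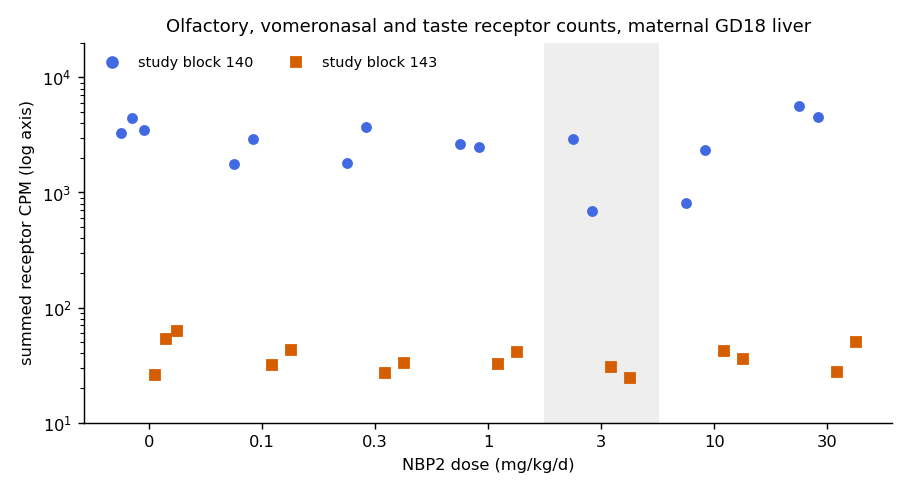
Summed CPM of olfactory, vomeronasal, taste and trace amine receptor genes (log axis) in each maternal GD18 library by dose, with study blocks 140 and 143 as separate symbols and the 3 mg/kg/d group shaded. Every block 140 library lies above every block 143 library, and dam 2079 at 3 mg/kg/d, at 688 CPM, lies below the 3 controls of its block.

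At 3 mg/kg/d the genes that stood out were drug-metabolising enzymes, led by Cyp2b2, Cyp3a23/3a1 and Cyp2b1, with the peroxisomal oxidase Acox2 beside them. Cyp2b2 averaged 187 ± 95.9 CPM in the 4 treated dams and 9.68 ± 10.8 CPM in the 6 controls (SD), and Cyp3a23/3a1 averaged 472 ± 99.4 CPM in treated dams and 136 ± 30.2 CPM in controls. None of them passed the threshold: 0 of 13783 genes (0%) had an adjusted p under 0.05 in edgeR's quasi-likelihood test with Benjamini-Hochberg adjustment over all genes and study block as a term. At an unadjusted p under 0.05 there were 986 genes (7.15%), of which 204 were higher (1.48%) and 782 lower (5.67%) at 3 mg/kg/d. DESeq2 called 11 genes (0.0798% of the 13783) on the same counts: Cyp2b2, Cyp2b1, Cyp3a23/3a1, AABR07035374.1, Gsta5, Ugt2b10, Acox2, Atp5f1b, Gk and Trim2, all higher, and LOC103690108, lower. It gave no adjusted p to some of the 13783, Phf10, Fam214a and Acacb among them. Its adjustment thus covered fewer genes than edgeR's, and the 0 and 11 calls are not over the same genes.

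Most of the lower genes had few counts. Of the 782 lower genes, 703 (89.9%) had a mean log2 CPM under 3, where 5819 of all 13783 genes tested had 3 or more. Controls were over 5 times higher in block 140 than in block 143 for 511 of the 782, and for 3621 of all 13783. Receptor genes made up 134 of the 782, of 873 receptor genes tested, while no receptor gene was higher at that p. The median log2 fold change was -0.10 over all genes and 0.04 over the 5819 genes whose mean log2 CPM over the 10 libraries was 3 or more, called well-counted genes below. Among the well-counted genes 168 were higher (2.89%) and 79 lower (1.36%) at that p. That balance depended on the fit: when the same 5819 genes were fitted alone, an alternative chosen after seeing the data, 110 were higher and 127 lower, with a median of -0.007. With the receptor sum of each library as a covariate, 260 genes were higher and 235 lower, with a median of 0.006. The part of the receptor counts in any one gene's difference was not tested beyond these values.

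Cyp2b2 and Cyp2b1 encode the phenobarbital-inducible P450s of rat liver. Cyp2b2 (rn6, chr1:83103925-83119194, plus strand) had 194, 182, 303 and 68.7 CPM in treated dams 2078, 2079, 2123 and 2124. In controls it had 0.283, 2.00 and 0.119 CPM in dams 2069, 2070 and 2071 of block 140, and 10.3, 22.2 and 23.1 CPM in dams 2114, 2115 and 2116 of block 143. Every treated dam was above every control, and the controls of block 140 were the lowest of the 10. The log2 fold change was 5.04 ± 0.89 (SE), with an adjusted p of 0.0558 in edgeR's test. It was 8.00 within block 140, where it rests on controls of 0.119 to 2.00 CPM, and 3.36 within block 143, where the 2 treated dams also lay above the 3 controls. The adjusted p was below 0.05 without treated dam 2124 (0.0129) or without treated dam 2078 (0.0181), and ran from 0.0864 to 0.284 with 1 of the other 8 libraries left out.

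Cyp2b1 (rn6, chr7:99142450-99181784, plus strand in the file) had 192, 129, 239 and 21.4 CPM in treated dams 2078, 2079, 2123 and 2124. In controls it had 29.0, 63.0, 34.4, 3.17, 21.6 and 40.9 CPM in dams 2069, 2070, 2071, 2114, 2115 and 2116. Of the treated dams 3 were above all controls, while dam 2124 lay within the control range. The log2 fold change was 2.35 ± 0.50, with an adjusted p of 0.231 in edgeR's test, and 2.76 with an adjusted p of 0.0129 without dam 2124. Cyp2b1 and Cyp2b2 are close copies with fractional deposited counts in all 10 libraries, so how counts were divided between them is uncertain.

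The start regions of both genes show how alike the copies are. They are printed from RefSeq (build GRCr8, which places both genes on chromosome 1), from 250 bases before to 50 after the start, Cyp2b2 at chr1:90722031-90722330 and Cyp2b1 at chr1:90645869-90646168, both on the plus strand. Over 283 aligned bases 8 differed (97.2% identical), and 17 bases at an end of each had no partner. Capitals mark the differing bases and the unpaired ends.
Cyp2b2: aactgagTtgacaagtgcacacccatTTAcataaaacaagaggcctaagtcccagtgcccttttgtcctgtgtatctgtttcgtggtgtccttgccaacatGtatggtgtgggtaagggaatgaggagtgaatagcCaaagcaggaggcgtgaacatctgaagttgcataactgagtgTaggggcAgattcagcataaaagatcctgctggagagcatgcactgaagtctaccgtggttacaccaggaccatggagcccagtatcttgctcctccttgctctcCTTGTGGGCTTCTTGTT
Cyp2b1: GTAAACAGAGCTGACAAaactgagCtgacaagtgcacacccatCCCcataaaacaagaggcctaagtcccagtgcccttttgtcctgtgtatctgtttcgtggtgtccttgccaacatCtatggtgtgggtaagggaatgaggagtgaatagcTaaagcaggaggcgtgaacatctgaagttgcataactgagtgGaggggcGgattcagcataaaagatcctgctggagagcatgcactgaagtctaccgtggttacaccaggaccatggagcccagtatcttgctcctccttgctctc
The 8 differences are spread singly or in a run of 3, and neither window holds the hexamer AGTTCA or AGGTCA on either strand, which 27.9% of the 33469 promoters of the same length hold. The known phenobarbital-responsive enhancer of these genes lies far upstream of such a window.

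Cyp3a23/3a1 (rn6, chr12:11655402-11733137, minus strand), a PXR-responsive P450 of rat liver, had 457, 537, 558 and 338 CPM in treated dams 2078, 2079, 2123 and 2124. In controls it had 108, 151, 156, 92.5, 172 and 135 CPM in dams 2069, 2070, 2071, 2114, 2115 and 2116. The groups did not overlap, and dam 2124 was again the lowest treated dam. The log2 fold change was 1.93 ± 0.40, with an adjusted p of 0.226 in edgeR's test. It was 2.11 within block 140 alone (adjusted p 0.00188 in that fit) and 1.75 within block 143 alone (adjusted p 0.764). AABR07035374.1, a gene model that the file places inside the same interval, had 85.3, 86.6, 98.7 and 62.0 CPM in the same treated dams, against 14.8 to 41.8 CPM in controls. Reads of the model and of Cyp3a23/3a1 may share a source, since both had fractional counts in all 10 libraries.

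The RefSeq promoter of this gene, listed there as Cyp3a23-3a1 (GRCr8, chr12:14398754-14399053, minus strand, printed along the gene's own strand), is shown because it holds a pair of receptor hexamers. Capitals mark a direct repeat of the hexamer AGTTCA, read on the opposite strand, with a spacer of 3 bases, at positions -144 to -130 from the start.
Cyp3a23-3a1: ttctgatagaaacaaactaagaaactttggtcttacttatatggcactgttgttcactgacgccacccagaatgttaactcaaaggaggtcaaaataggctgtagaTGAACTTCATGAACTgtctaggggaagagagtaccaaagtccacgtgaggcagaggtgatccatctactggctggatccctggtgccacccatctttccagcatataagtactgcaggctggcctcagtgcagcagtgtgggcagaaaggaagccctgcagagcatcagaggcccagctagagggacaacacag
A direct repeat of AGTTCA or AGGTCA with that spacer, searched on both strands, occurred in 14 of 33469 promoters (0.0418%), among them Cyp3a2 and Cyp3a23-3a1. PXR with RXR is known to bind repeats of this kind. The match is a description of letters, and binding was not measured.

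**Figure D2:**
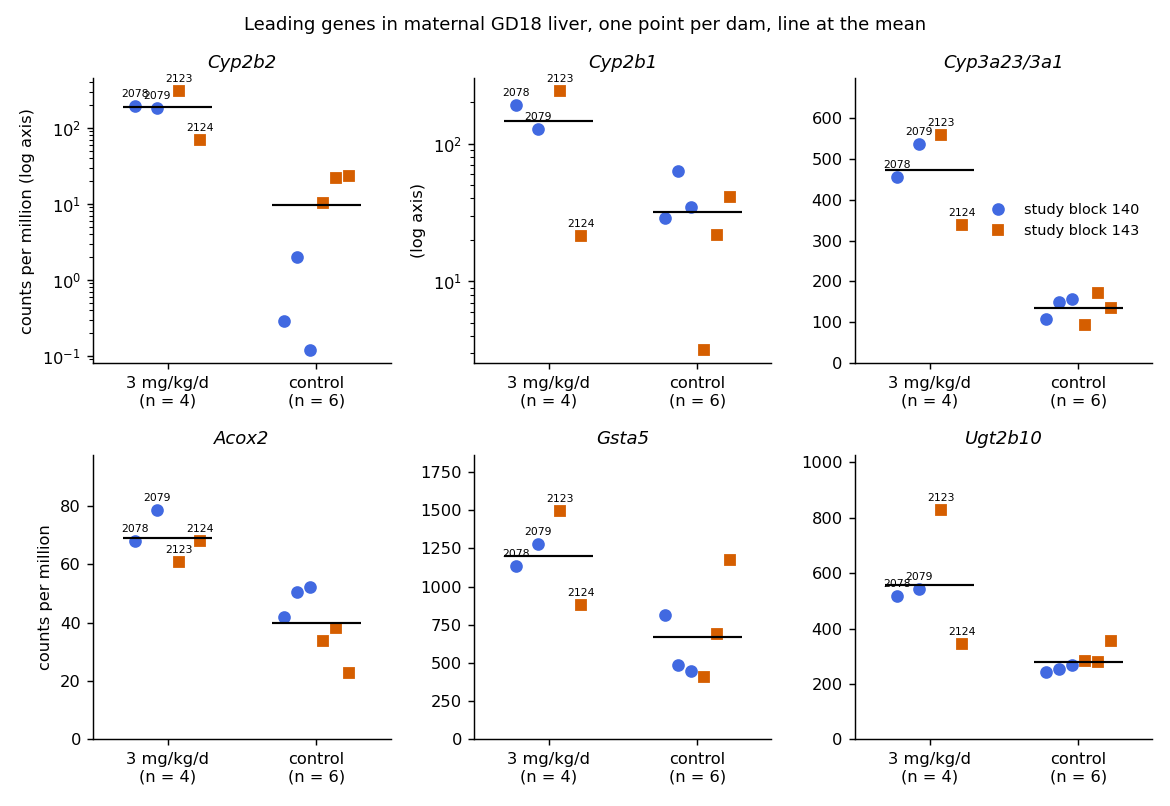
CPM of Cyp2b2 and Cyp2b1 (log axes) and of Cyp3a23/3a1, Acox2, Gsta5 and Ugt2b10 (linear axes from 0) in 4 dams at 3 mg/kg/d and 6 controls of GD18, with 1 point per dam, symbols by study block, treated dams numbered and a line at the group mean. Cyp2b2, Cyp3a23/3a1 and Acox2 show no overlap between groups, and dam 2124 is the lowest treated dam in every panel but Acox2.

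Of 40 CAR and PXR target genes listed, 26 were tested. At an unadjusted p under 0.05, 9 were higher and 1 lower, where 1.48% of all genes tested were higher and 5.67% lower, and 22 of 26 had a positive fold change. Of the 26, 20 were well-counted, a class in which 2.89% were higher. The list's median log2 fold change was 0.37, against -0.10 over all genes and 0.04 over well-counted genes. The 9 were Cyp2b2, Cyp3a23/3a1, Cyp2b1, Gsta5, Slco1a4, Ephx1, Aldh1a1, Cyp2c6v1 and Ugt1a6, so that they covered oxidation, conjugation and uptake. The count changed with the setting, from 3 to 12. It was 8 to 12 with 1 library left out, with 12 of 26 without dam 2124. It was 11 of 26 in block 140 alone and 8 of 20 when well-counted genes were fitted alone. With the receptor sum as a covariate 6 of the 26 were higher, with a median of 0.28, and without dam 2078 in that fit 3 of the 26 were. In block 143 alone, with 2 treated dams and 3 controls, 3 of 24 were higher.

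Among the conjugating enzymes, Gsta5, an alpha-class glutathione transferase, had 1136, 1279, 1498 and 878 CPM in treated dams 2078, 2079, 2123 and 2124, against 815, 485, 448, 410.3, 693 and 1177 CPM in controls 2069, 2070, 2071, 2114, 2115 and 2116. Control 2116 lay among the treated dams, and the log2 fold change was 0.95 ± 0.25 (adjusted p 0.511 in edgeR's test). Ugt2b10, a glucuronosyltransferase outside the list, had 516, 542, 826 and 345 CPM in the same treated dams, against 242 to 353 CPM in controls. Dam 2124 again fell within the control range, and the log2 fold change was 1.10 ± 0.29 (adjusted p 0.511 in edgeR's test). Ephx1, the microsomal epoxide hydrolase, averaged 131 ± 9.61 CPM in treated dams and 97.8 ± 18.1 CPM in controls, with 1 control, 2116 at 127 CPM, among the treated values of 123 to 141 CPM.

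The 4 remaining higher members had log2 fold changes under 1 and overlapped with controls. Slco1a4, an uptake transporter of organic anions, had 113 to 211 CPM in treated dams and 76.1 to 138 CPM in controls, a log2 fold change of 0.64 ± 0.22. Aldh1a1, a retinal dehydrogenase, had 431 to 629 CPM in treated dams and 307 to 529 CPM in controls (0.48 ± 0.21). Cyp2c6v1, a constitutive P450 that CAR activators raise, had 2548 to 4090 CPM in treated dams and 2113 to 3175 CPM in controls (0.48 ± 0.18). Ugt1a6, a phenol glucuronosyltransferase, had 298 to 368 CPM in treated dams and 240.4 to 309 CPM in controls (0.40 ± 0.18).

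The other 17 tested members were not higher at an unadjusted p under 0.05, and their values ran from well above to well below 0. Gadd45b, a stress- and CAR-responsive gene, had 1.05 to 2.83 CPM in treated dams and 0 to 1.25 CPM in controls, a log2 fold change of 1.11 ± 0.55 (unadjusted p 0.0548 in edgeR's test). Ces2a, a carboxylesterase, had 242 to 533 CPM in treated dams and 97.5 to 401 CPM in controls (0.70 ± 0.41). Dhrs7l1, a member of the short-chain dehydrogenase family, had 9.91 to 62.8 CPM in treated dams and 9.32 to 38.8 CPM in controls (0.64 ± 0.47). Both groups overlapped for these 3 genes, as they did for Alas1, the first enzyme of haem synthesis (0.41 ± 0.29), Cyp3a9 (0.34 ± 0.28), Cyp2c7 (0.20 ± 0.38), Akr7a3 (0.14 ± 0.54) and Thrsp (0.14 ± 0.32).

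Others of the list lay closer to their controls or below them. Cyp2b3, a CYP2B gene known not to respond to phenobarbital, had 1258 to 1394 CPM in treated dams and 1060 to 1628 CPM in controls, a log2 fold change of 0.07 ± 0.19. Por, the electron donor of the P450s, had a log2 fold change of 0.22 ± 0.38, at about 1 CPM in both groups. Cyp2a1 (-0.09 ± 0.23), Abcc2, a canalicular export pump (-0.01 ± 0.23), Gsta1 (0.06 ± 0.19) and Gsta2 (0.34 ± 0.38) likewise overlapped with controls. Sult2a1, a hydroxysteroid sulfotransferase, spread widely within both groups, at 556 to 4888 CPM in treated dams and 474 to 4080 CPM in controls. Cyp2b12 had at most 1.01 CPM in treated dams and 2.84 CPM in controls (-1.34 ± 0.67, unadjusted p 0.0558 in edgeR's test). The 1 member lower at an unadjusted p under 0.05, Cyp2b15, reached at most 2.41 CPM in treated dams and 7.24 CPM in controls, with every control of block 143 at or near 0.

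**Figure D3:**
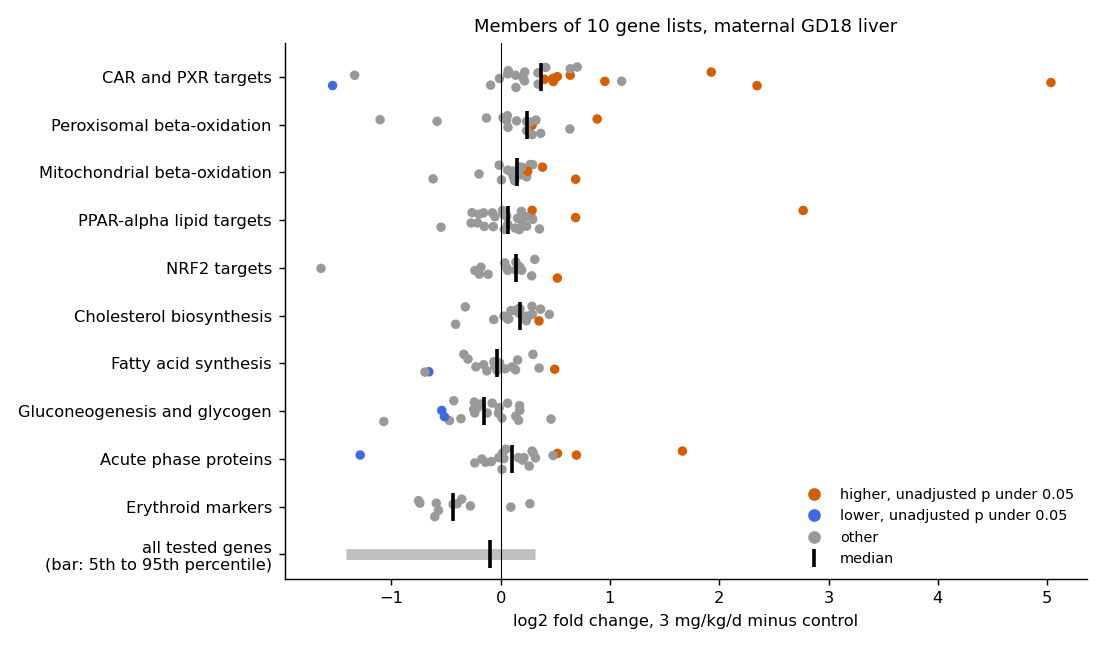
Log2 fold change at 3 mg/kg/d minus control of each tested member of 10 gene lists, with a tick at each list's median, and for all 13783 genes a bar from the 5th to the 95th percentile. The CAR and PXR list has the highest median, 0.37, and Cyp2b2 at 5.04 is the point farthest right; coloured points have an unadjusted p under 0.05 and none passed after adjustment.

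Acox2, the peroxisomal oxidase that acts on bile acid intermediates and branched fatty acids, had 68.2, 78.6, 61.0 and 68.0 CPM in treated dams 2078, 2079, 2123 and 2124. In controls it had 41.8, 50.6, 52.3, 33.8, 38.3 and 22.6 CPM in dams 2069, 2070, 2071, 2114, 2115 and 2116. All 4 treated dams lay above all controls, dam 2124 included, which 14 of the 5819 well-counted genes showed (0.241%). The log2 fold change was 0.88 ± 0.19 (adjusted p 0.226 in edgeR's test, 0.00443 in DESeq2), at 0.86 within block 140 and 0.99 within block 143. At the doses outside this comparison its 20 libraries ranged from 27.4 to 88.0 CPM with a median of 59.1 CPM, and 30 against 3 mg/kg/d gave a log2 fold change of 0.02 ± 0.20.

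Of 31 PPAR-alpha target genes tested, 3 were higher at an unadjusted p under 0.05, Acot1 and Acot2 among them, and none lower, where 1.48% of all genes tested were higher and 5.67% lower. Their median log2 fold change was 0.06, and with the receptor sum as a covariate it was -0.03, with 2 higher. Ehhadh, the peroxisomal bifunctional enzyme and a standard PPAR-alpha marker in rat, had 41.7, 58.4, 54.2 and 54.2 CPM in treated dams 2078, 2079, 2123 and 2124, against 36.6 to 59.2 CPM in controls (0.29 ± 0.23). Cyp4a1, a fatty acid omega-hydroxylase, had 135 to 261 CPM in treated dams and 156 to 241 CPM in controls (0.19 ± 0.21). Cpt1a (-0.20 ± 0.32), the gate of mitochondrial fatty acid entry, Pdk4 (-0.21 ± 0.32), a brake on pyruvate oxidation, and Fabp1 (-0.07 ± 0.20), the liver fatty acid binding protein, all overlapped with controls.

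The value of Acot1, a cytosolic acyl-CoA thioesterase, rested on dam 2124. Acot1 had 1.82, 0.185, 0 and 32.5 CPM in treated dams 2078, 2079, 2123 and 2124, against 0.183 to 1.98 CPM in controls. Its log2 fold change was 2.77 ± 0.84 (adjusted p 0.584 in edgeR's test) with dam 2124 and -0.58 (adjusted p 0.841) without it. Dam 2124 was also the highest treated dam for Acot2, the mitochondrial thioesterase, at 12.0 CPM against 5.26 to 7.19 CPM in the others, and for Vnn1, a pantetheinase and PPAR-alpha target, at 48.5 CPM against 18.3 to 21.1 CPM.

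Among the treated dams, 2124 was often low for CAR and PXR targets and for gluconeogenesis and glycogen genes, but not for PPAR-alpha targets. On CPM scaled by TMM factors it was the lowest of the 4 treated dams for 16 of the 25 CAR and PXR targets whose 4 values all differed (64%), where it was the lowest for 24% of well-counted genes. It was also the lowest for 10 of 22 gluconeogenesis and glycogen genes (45.5%). For PPAR-alpha targets dam 2124 was the highest of the 4 for 13 of 31 (41.9%), where it was the highest for 30.2% of well-counted genes. Dam 2079 was the highest for 11 of these 31 (35.5%) and for 11 of 20 mitochondrial beta-oxidation genes (55%), against 25.7% of well-counted genes. Pck1, the fasting-responsive enzyme of gluconeogenesis, had 95.6 CPM in dam 2124, against 252 to 516 CPM in the other 3 treated dams and 102 to 485 CPM in controls. Cd5l, a Kupffer cell gene, had 440.4 CPM there, against 240 to 274 CPM in the other treated dams, and the 15 macrophage markers summed to 1450 CPM in dam 2124, the highest of the 10 libraries. In whole liver fewer cells of a type and less RNA per cell cannot be told apart, and the part of any of these values in the low CYP2B counts of dam 2124 was not tested.

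**Figure D4:**
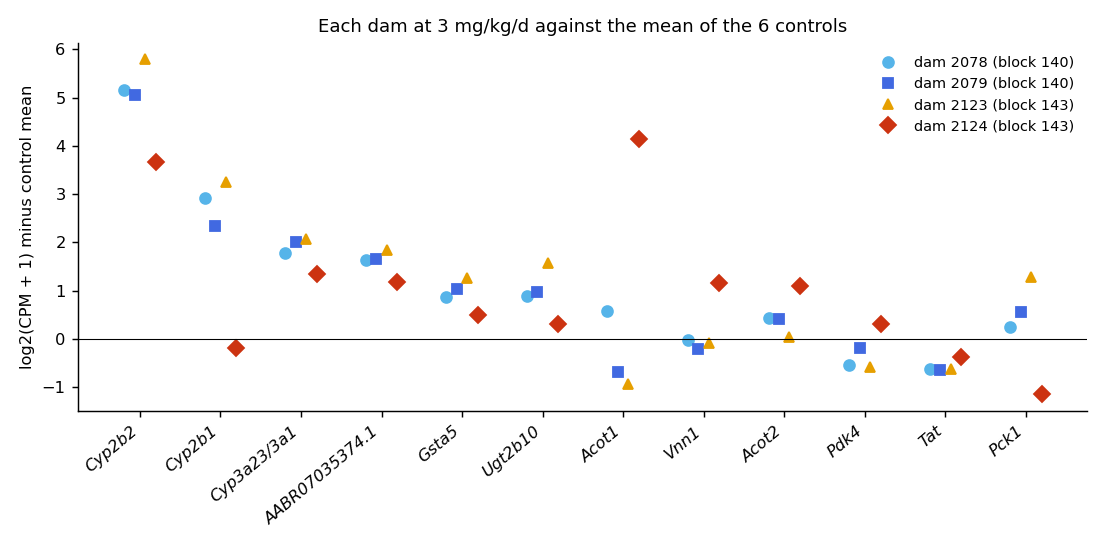
Log2(CPM + 1) of each of the 4 dams at 3 mg/kg/d minus the mean of the 6 controls, for 6 xenobiotic-metabolism genes on the left and 6 lipid and fasting genes on the right. Dam 2124 (diamonds) is the lowest of the 4 for all 6 genes on the left, including Cyp2b1 at -0.18. On the right it is the highest for Acot1 at 4.14, Vnn1, Acot2, Pdk4 and Tat, and the lowest for Pck1 at -1.14.

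Other genes of fuel handling had small fold changes. Atp5f1b, the beta subunit of the mitochondrial ATP synthase, had 2221, 2655, 2964 and 2689 CPM in treated dams 2078, 2079, 2123 and 2124, against 1914 to 2540 CPM in controls. Control 2071, at 2540 CPM, lay among the treated dams, and the log2 fold change was 0.41 ± 0.10 (adjusted p 0.479 in edgeR's test, 0.0031 in DESeq2). Gk, glycerol kinase, had 182 to 246 CPM in treated dams and 158 to 229 CPM in controls (0.39 ± 0.10). Of 20 mitochondrial beta-oxidation genes, 3 were higher (Acad9, Acot2 and Etfb) and none lower, with a median of 0.15, and of 18 peroxisomal genes 2 were higher, Acox2 among them, with a median of 0.24, where 1.48% of all genes tested were higher. With the receptor sum as a covariate 1 gene of each list was higher, with medians of 0.04 over the mitochondrial and 0.13 over the peroxisomal genes.

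On the lower side, Acacb, which makes malonyl-CoA at the mitochondrion, had 16.8, 13.7, 11.1 and 13.6 CPM in treated dams 2078, 2079, 2123 and 2124, against 18.5 to 28.8 CPM in controls. Tat, tyrosine aminotransferase, a glucocorticoid-responsive gene of amino acid breakdown, had 37.0, 36.6, 37.0 and 44.2 CPM in the same dams, against 47.9 to 72.0 CPM in controls. Neither gene overlapped between groups, with log2 fold changes of -0.66 ± 0.21 and -0.51 ± 0.25, and 32 of the 5819 well-counted genes showed that order (0.55%). Pklr, liver pyruvate kinase, had 5.36 to 10.96 CPM in treated dams and 8.07 to 14.2 CPM in controls (-0.54 ± 0.22). Id1, a target of BMP signalling in liver, had 94.6 to 169 CPM in treated dams and 147 to 350 CPM in controls (-0.64 ± 0.22).

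The lower well-counted gene of smallest p outside the receptor families was Fam214a, with 21.9, 16.1, 29.3 and 28.3 CPM in treated dams 2078, 2079, 2123 and 2124, against 26.3 to 45.6 CPM in controls. The log2 fold change was -0.52 ± 0.13 (adjusted p 0.479 in edgeR's test). Its 20 libraries at other doses ranged from 24.2 to 42.0 CPM, so that dams 2078 and 2079 lay below all of them and dams 2123 and 2124 within that range. For all the others of the 10 lower genes of smallest p, values at other doses also overlapped with the treated values. Acacb ranged from 9.47 to 25.9 CPM at other doses, and Id1 from 124 to 264 CPM. Phf10, a subunit of a chromatin remodelling complex, had 16.2 to 22.3 CPM in treated dams and 37.2 to 57.3 CPM in controls (-1.14 ± 0.35, adjusted p 0.59 in edgeR's test), and its 20 libraries at other doses ranged from 10.9 to 48.3 CPM. LOC103690108 had 6.16 to 10.4 CPM in treated dams, while controls held 415, 381, 12.8, 3.66, 719 and 370.0 CPM in dams 2069, 2070, 2071, 2114, 2115 and 2116. Libraries at other doses ranged from 4.31 to 794 CPM with a median of 13.2 CPM. Mtrex, an RNA helicase of the nuclear exosome, likewise had 5.18 to 11.8 CPM in treated dams, 7.84 to 83.7 CPM in controls and 5.82 to 83.8 CPM at other doses, so that for both genes high and low dams occurred in several dose groups.

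Of the further lists, none had more than 3 members at an unadjusted p under 0.05 in a direction, where 1.48% of all genes tested were higher and 5.67% lower. Of 20 fatty acid synthesis genes 1 was higher (Acss2) and 1 lower (Acacb), of 20 cholesterol biosynthesis genes 1 was higher (Hsd17b7, 0.35 ± 0.15), and of 22 gluconeogenesis and glycogen genes 2 were lower (Pklr and Tat). Acute phase proteins had 3 higher (Mt2A, Il1r1 and Orm1) and 1 lower (Hamp) of 22, complement and coagulation 2 higher of 28 (C3 and F12), bile acid genes 2 higher (Slco1a4 and Hsd3b7) and 1 lower (Slc27a5) of 13, and p53 targets 2 lower of 10 (Sesn2 and Ccng1). With the receptor sum as a covariate 0 acute phase and complement genes and 1 bile acid gene were higher. The value of Mt2A, a metallothionein among the acute phase genes, rested on dam 2123, at 16.2 CPM against 0.795 to 3.29 CPM in the other treated dams. For Ccng1, control 2070 had 33.9 CPM, against 3.66 to 5.60 CPM in the other controls and 2.43 to 5.41 CPM in treated dams. Its log2 fold change was -1.08, and ran from -1.44 to -0.23 with 1 library left out. The remaining lists held at most 1 gene in either direction. Urea cycle genes had 1 higher and 1 lower of 18, and NRF2, AhR, thyroid hormone and growth hormone lists 1 higher each of 17, 6, 13 and 15. Other conjugation and immediate early genes had 1 lower each of 14 and 14. None of the tested genes of ketogenesis (6), lipoproteins (21), haem metabolism (13), interferon response (18), cell cycle (20), ER stress (13), the circadian clock (13) or lipid and xenobiotic nuclear receptors (19) had an unadjusted p under 0.05.

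Markers of other cell types were compared in the same way. Macrophage and Kupffer cell markers were positive for 12 of 14 tested genes, with a median log2 fold change of 0.15 and 1 gene, Cd5l, higher at an unadjusted p under 0.05 (0.50 ± 0.22). They summed to 1093 to 1450 CPM in treated dams and 901.7 to 1326 CPM in controls, and the median was 0 with the receptor sum as a covariate. Erythroid markers had a median log2 fold change of -0.44 over 11 tested genes, none at an unadjusted p under 0.05, and summed to 1491 to 4041 CPM in treated dams and 1624 to 7848 CPM in controls. T and NK cell markers had a median of -0.85 over 7 tested genes, 1 of them lower at that p (Gzmb, -1.03 ± 0.48), with sums of 43.9 to 65.8 CPM in treated dams and 54.3 to 82.4 CPM in controls, and with Cd8a and Nkg7 under 1 CPM in all 10 libraries. B cell markers summed to 10.8 to 17.6 CPM in treated dams and 17.01 to 33.9 CPM in controls, with Jchain lower (-1.05 ± 0.41) and Pax5 under 1 CPM in all 10 libraries. The sums of these 4 lists overlapped between the groups. With the receptor sum as a covariate the medians were -0.08 for erythroid and -0.18 for T and NK cell markers, and Gzmb was at -0.07. The median of the 2 B cell markers tested was -0.55 without the covariate and -0.79 with it, and Jchain was at -1.45 with it. Of stellate and fibroblast markers 2 of 11 were lower (Lum and Vim), and of endothelial and cholangiocyte markers 1 of 12 (Emcn) and 1 of 7 (Anxa4), where 5.67% of all genes tested were lower. The stellate and fibroblast median was -0.09 without the covariate and -0.21 with it. Vim was at -0.52 without it and -0.82 with it, and Lum at -2.06 and -1.21. Neutrophil, adipocyte and placental markers had no member at that p among 3, 4 and 4 tested. Of 3 pancreatic acinar markers tested 1 was lower (Prss1, at most 0.549 CPM in the block 143 dams compared and 4.21 CPM in those of block 140). The markers of that list summed to 165 to 2864 CPM in treated dams and 221 to 1995 CPM in controls, nearly all of it Cpa1, with Cela2a, Pnlip and Cel under 1 CPM in all 10 libraries.

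Set between its neighbouring doses, 3 mg/kg/d was the lowest dose at which mean Cyp2b1 lay above the highest control dam, at 63.0 CPM. Mean Cyp2b2 lay above its highest control dam, at 23.1 CPM, from 0.1 mg/kg/d on, except at 0.3 mg/kg/d. Some single dams lay below that level, with 1.77 CPM in dam 2073 at 0.1 mg/kg/d. At 1 mg/kg/d dams 2076 and 2077 had 18.3 and 10.0 CPM. These dams are of block 140, whose controls had 0.119 to 2.00 CPM. Mean Cyp2b2 was 9.68 CPM in controls, 31.0 CPM at 0.1, 18.8 CPM at 0.3, 34.9 CPM at 1, 187 CPM at 3, 232 CPM at 10 and 908 CPM at 30 mg/kg/d. Mean Cyp2b1 was 32.0 CPM in controls, 45.9 CPM at 0.1, 28.0 CPM at 0.3, 41.3 CPM at 1, 145 CPM at 3, 235 CPM at 10 and 868 CPM at 30 mg/kg/d. Mean Cyp3a23/3a1 in the same order was 136, 159, 179, 152, 472, 687 and 3260.0 CPM. Single dams did not all follow these means. At 10 mg/kg/d dam 2125 had 1719 CPM of Cyp3a23/3a1. Dams 2080, 2081 and 2126 had 389, 342 and 300 CPM, below the mean at 3 mg/kg/d. At 30 mg/kg/d dam 2082 had 37.4 CPM of Cyp2b2, below every dam at 3 mg/kg/d, of which 2124 was the lowest at 68.7 CPM. Neither the step below nor the step above was called for any gene. For 3 minus 1 mg/kg/d, 0 of 13783 genes (0%) passed in edgeR's test, with 343 at an unadjusted p under 0.05 and 0 called by DESeq2, and the log2 differences were 2.96 ± 0.92 for Cyp2b2, 1.92 ± 0.57 for Cyp2b1 and 1.80 ± 0.45 for Cyp3a23/3a1. For 10 minus 3 mg/kg/d, 0 of 13783 genes (0%) passed, with 397 at an unadjusted p under 0.05 and 0 called by DESeq2, and the differences were 0.12 ± 0.84, 0.61 ± 0.54 and 0.37 ± 0.44 for the same genes.

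The difference between 30 and 3 mg/kg/d was called for 21 of 13783 genes (0.152%), 15 of them higher at 30 mg/kg/d (0.109%), against 152 called by DESeq2. Ehhadh averaged 220.3 ± 118 CPM at 30 mg/kg/d and 52.1 ± 7.24 CPM at 3 mg/kg/d, a log2 difference of 1.86 ± 0.26 (adjusted p 0.00022 in edgeR's test). Vnn1 (2.07 ± 0.27), Acot2 (1.53 ± 0.27) and Eci1 (1.85 ± 0.33), PPAR-alpha-responsive genes in rodents, were called with it. Of the xenobiotic genes Cyp3a23/3a1 (2.59 ± 0.46), Ephx1 (1.58 ± 0.19) and Aldh1a1 (1.38 ± 0.24) were called, while Cyp2b1 (2.52 ± 0.57, adjusted p 0.062) and Cyp2b2 (1.99 ± 0.86, adjusted p 0.219) were not. Rgn, a calcium-binding lactonase, was among the 6 lower at 30 mg/kg/d (-0.93 ± 0.19), and at 3 mg/kg/d it overlapped with controls (-0.05 ± 0.17).

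**Figure D5:**
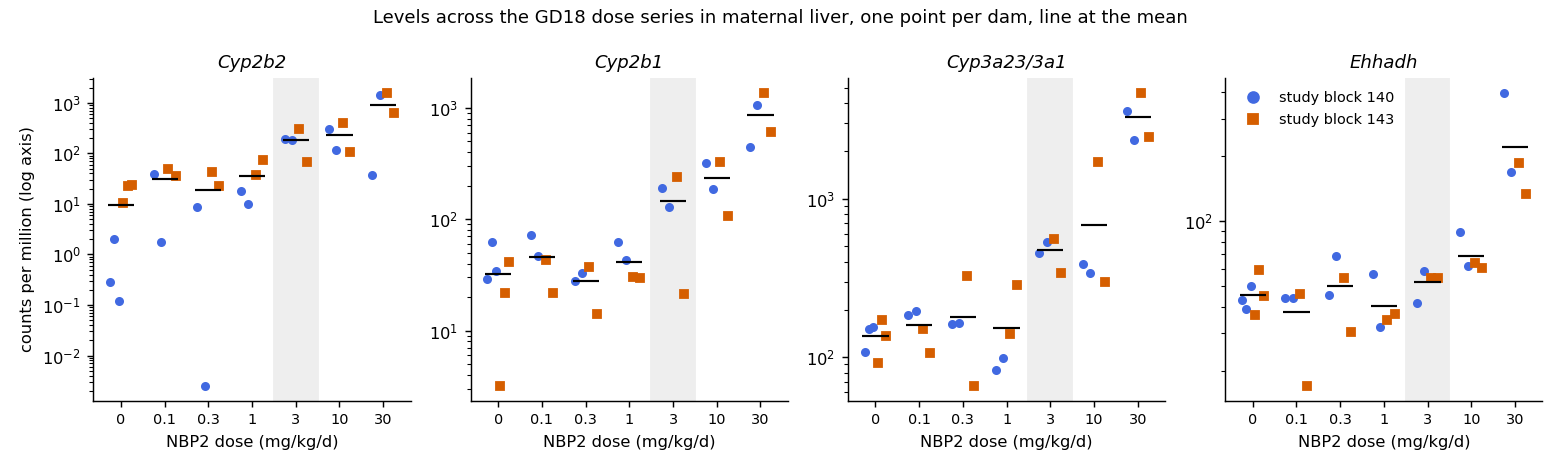
CPM (log axes) of Cyp2b2, Cyp2b1, Cyp3a23/3a1 and Ehhadh in each maternal GD18 library by dose, from control to 30 mg/kg/d, with symbols by study block, a line at each mean and the 3 mg/kg/d group shaded. The means of the CYP genes stand above those of the lower doses at 3 mg/kg/d, but dam 2124 there lies among the lower-dose dams for Cyp2b1, at 21.4 CPM, and below dam 2122 at 1 mg/kg/d for Cyp2b2, at 68.7 against 74.3 CPM. Ehhadh averages 52.1 CPM there and 220.3 CPM at 30 mg/kg/d.

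The same dose was given to dams of a later age, dosed from GD17 and called GD21 in the titles but GD20 in the age entry, in study block 144, so that age and block cannot be told apart. Cyp2b1 had 72.1, 63.5 and 83.2 CPM in the 3 dams at 3 mg/kg/d and 23.7, 18.9 and 19.1 CPM in the 3 controls. Cyp2b2 had 180.2, 170.5 and 125 CPM in the treated dams and 29.4, 11.6 and 40.4 CPM in controls. Cyp3a23/3a1 had 312, 296 and 325 CPM in the treated dams and 157, 147 and 181 CPM in controls. The groups did not overlap for any of these genes, with log2 fold changes of 1.69 ± 0.33, 2.42 ± 0.49 and 0.80 ± 0.41. Their unadjusted p in edgeR's test was 0.000128, 0.000162 and 0.0651. How many of all genes showed no overlap among these 3 and 3 dams was not counted. No gene passed in edgeR's test (0 of 9238, 0%, with 231 higher at an unadjusted p under 0.05, 2.5%, and 135 lower, 1.46%). Acox2, at 34.0, 60.9 and 47.9 CPM in treated dams against 28.5, 34.3 and 39.0 CPM in controls, overlapped there.

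The difference of the response between the ages was tested in a joint fit of the 45 maternal libraries. It was called for 0 of 14621 genes (0%) in edgeR's test, and 670 (4.58%) had an unadjusted p under 0.05. In DESeq2 2 genes were called, Clasp2 (log2 difference -1.06, adjusted p 0.0484) and Nfs1 (-26.4, adjusted p 0.00488). The value of Nfs1 is far outside the range of the other log2 differences given here, and the levels behind it are not reported. The GD18 minus GD21 difference of the log2 fold change was 2.63 ± 1.19 for Cyp2b2, 0.67 ± 0.75 for Cyp2b1 and 1.14 ± 0.63 for Cyp3a23/3a1. For Acox2 it was 0.57 ± 0.32.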

How the data were processed

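Liver RNA of pregnant rats was profiled by TempO-Seq, with detector probes to 21119 genes and single reads of 50 bases, per the labels' protocols, which also state that overly abundant transcripts were attenuated alike in all samples. The authors deposited estimated counts for 20833 genes with no normalization; the submitters' processing notes name STAR 2.7.3a, Partek and the build rn6, without roles. Of the values in the 10 libraries 8.22% are not whole and were rounded for the tests. The authors also deposited log2 values of scaled counts, which were not used for tests.

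All 30 maternal GD18 libraries were fitted in edgeR 4.0.16 (R 4.3.3) with dose as 7 groups and study block as a term, after filterByExpr by group and TMM factors. Fold changes used a prior count of 0.125 and are given with their SE, the fold change over the square root of F; tests were two-sided, adjusted by Benjamini-Hochberg, with a threshold of 0.05. GD21 libraries were fitted apart and in a joint fit with GD18. Levels are plain CPM of unrounded counts. Pairs of replicate libraries differed by more than sampling noise (chi-square per degree of freedom 14.3 or more), so none was merged. Molecular identifiers are not mentioned in the labels. DESeq2 1.42.0 was an alternative, with other factors, filters, blocks, a receptor covariate and each library left out. The quasi-likelihood step was tested on simulated data.

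The members, the 38 gene lists and the naming rule were chosen with earlier results of these data known. Named genes are the 10 higher and 10 lower of smallest p with a mean log2 CPM of 3 or more outside the receptor families, every tested CAR and PXR target, a fixed set of lipid and fasting genes, genes called by DESeq2 or called higher by edgeR with 1 treated library left out, and the 2 of smallest p in each list. Members named outside the rule because a count of 5 or fewer is broken down are Etfb, Orm1, Hamp, Hsd3b7, Clasp2, Nfs1 and Eci1. Promoters came from RefSeq (GRCr8), matched by symbol or synonym for 3 genes. Cyp7a1 passed no filter. Some genes that the rule or the lists name are not reported here, while counts of genes include them.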

Additional observations from a re-analysis of the deposited data

Results flagged for a closer look

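Single dams stood far from the rest of their group in several genes, by the gap to the nearest dam over the range of the group. In a group of this size chance gives such a gap for about 1 in 20 genes, and the 82 named genes were looked at in both groups. Dam 2124 was the one apart at 3 mg/kg/d for Acot1 (gap over range 0.944, 32.5 CPM), Tat (0.942, 44.2 CPM), Vnn1 (0.909, 48.5 CPM), Il1r1 (0.84, 11.5 CPM) and Cd5l (0.832, 440.4 CPM), and was the high dam in each. Dam 2078 was high for Cyp2b15 (0.917), Gadd45b (0.907), Klf4 (0.855) and Prss1 (0.848), all at 3.44 CPM or less. Dam 2123 was high for Mt2A (0.838, 16.2 CPM), and dam 2079 was low for Sesn2 (0.845, 1.29 CPM).

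Among the 6 controls, dam 2070 was high for Ccng1 (0.936, 33.9 CPM), P2rx4 (0.813, 60.4 CPM) and Thrsp (0.634, 2406 CPM). Dam 2071 was high for Atp5f1b (0.676, 2540.0 CPM) and Gk (0.641, 229 CPM), dam 2115 for Akr7a3 (0.638, 3.73 CPM) and dam 2116 for Pdk4 (0.678, 28.1 CPM).

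Tat lay on opposite sides of its controls at the 2 ages. At GD18 it was lower in every treated dam (log2 fold change -0.51), and at GD21 it had 70.1, 84.4 and 73.3 CPM in the 3 treated dams against 52.6, 53.8 and 50.9 CPM in controls. The log2 fold change at GD21 was 0.39 ± 0.22 (unadjusted p 0.0984 in edgeR's test). That opposite order was looked for over the 82 named genes and was not tested as such. How many of all genes showed it, or showed no overlap among the 3 and 3 dams of GD21, was not counted. The GD18 minus GD21 difference of Tat in the joint fit was -0.89 ± 0.37 (adjusted p 1 in edgeR's test).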

How the results depend on the processing

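Against 0 genes called for 3 mg/kg/d, edgeR called 0 with RLE factors, no block term, block 143 alone, receptor genes taken out or the receptor sum as a covariate. It called 1 (Cyp2b2) with no filter on low counts, 2 (Cyp3a23/3a1 and AABR07035374.1) in block 140 alone and 5 (these 3, Acox2 and Phf10) in the 10 libraries alone. DESeq2, which adjusted over fewer genes, called 11. With 1 library left out edgeR called 0 to 100 genes. The 100 came without treated dam 2078, 8 higher and 92 lower, and all 92 had a mean log2 CPM under 3, with 28 receptor genes among them and 90 with controls over 5 times higher in block 140 than in block 143. Without treated dam 2124 it called 3 (Cyp2b2, Cyp2b1 and Cyp3a23/3a1). Chosen after seeing the data, DESeq2 with the receptor covariate called 3, all lower (Phf10, LOC103690108 and AABR07044364.1), DESeq2 in block 143 alone called 7, and edgeR called 0 without dam 2078 but with the covariate, and 0 on well-counted genes alone, where 110 were higher and 127 lower at an unadjusted p under 0.05. With no filter the median log2 fold change of all genes was -0.21. DESeq2 called 152 genes for 30 minus 3 mg/kg/d and 2 for the difference between ages. The causes of these changes were not tested.

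Over 82 named genes and 23 settings, 1746 of 1846 values kept their direction and their side of the threshold, 34 passed it in the same direction and 66, of 20 genes, changed sign. None of the 20 was called in any setting. A named gene with no adjusted p in DESeq2 was scored as not called. In block 140 alone Abcc2 was at 0.2, Acot1 -0.386, Cpt1a 0.034, Cyp2a1 0.226, Fabp1 0.33, Igfbp1 0.318, Pdk4 0.139 and Por -0.091. In block 143 alone, by edgeR and by DESeq2, Akr7a3 was at -0.545 and -0.526, Cyp2b3 -0.017 and -0.008, Gsta1 -0.128 and -0.118, Gsta2 -0.111 and -0.103, Rgn 0.029 and 0.037, and Sult2a1 -1.019 and -1.006. With the receptor covariate, by edgeR and by DESeq2, Akr7a3 was at -0.468 and -0.43, Fmo1 0.186 and 0.204, Gsta1 -0.048 and -0.033, and Sult2a1 -0.044 and -0.038, and Cyp2b3 by edgeR -0.003. With that covariate and without dam 2078, Akr7a3 was at -0.478, Cyp2b3 -0.116, Cyp2c7 -0.341, Fmo1 0.307, Gadd45b -0.059, Gzmb 0.064, Sult2a1 -1.013 and Thrsp -0.051. Abcc2 was at 0.011 with no filter.

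With 1 library left out the log2 fold change ran from -0.112 to 0.169 for Abcc2, -0.576 to 3.272 for Acot1, -0.526 to 0.481 for Akr7a3, -0.631 to 0.1 for Cpt1a, -0.17 to 0.152 for Cyp2a1, -0.012 to 0.438 for Cyp4a1, -0.299 to 0.198 for Fabp1, -0.58 to 0.134 for Fmo1, -0.054 to 0.258 for Gsta1, -0.559 to 0.154 for Igfbp1, -0.391 to 0.009 for Pdk4, -0.124 to 0.072 for Rgn and -0.036 to 0.606 for Sult2a1. No paired analysis was possible because the groups compared share no dam number. Depth limits genes near 1 CPM, where a library holds few counts, and the spread between dams limits the rest.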
